A study of Mus musculus with 6 samples.

Results

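Eukaryotic translation initiation factors (eIFs) and aminoacyl-tRNA synthetases supply the early steps of protein synthesis. Their transcripts were compared here between regulatory T (Treg) cells of mice with both Gata3 alleles floxed and of mice with 1 floxed. The genes were chosen by symbol: those beginning with Eif1 to Eif6, without the eIF2 kinases (Eif2ak) and the Y-linked Eif2s3y, and those naming a synthetase by an ending in ars, ars1 or ars2. Of 85 protein-coding genes that RefSeq (GRCm38.p6) lists under this rule, 60 were measured by a probe set with 1 annotated gene, 37 initiation factors and 23 synthetases, among 12394 genes in all. The other 25, among them Eif1, Eif2s1, Eif4g1, Eif3g, Dars and Mars1, were not analysed here. The rule used no measured value.

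The cells were sorted as CD4+CD25+YFP+ from spleen and lymph nodes. Mice of genotype Gata3F/FFoxp3YFP-Cre, in which both Gata3 alleles carry loxP sites, gave the 3 arrays labelled Gata3-deficient (GATA3 KO). Mice of genotype Gata3F/+Foxp3YFP-Cre, with 1 floxed and 1 intact allele, gave the 3 arrays labelled Gata3-sufficient (WT). Both groups thus carry the YFP-Cre reporter in the Foxp3 locus, which limits deletion to cells that express or once expressed Foxp3, and the control group is heterozygous for the floxed allele. The design text gives 3 mice in each group, and no source used here gives their age or sex.

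Some facts of the arrays bear on every value below. The probe set of Gata3 read higher in the arrays labelled Gata3-deficient (9.84 ± 0.14 against 9.48 ± 0.08, SD, n = 3 each), so the direction of every change rests on the labels, and no source used here says which part of the gene was deleted. The Foxp3 probe set was dim in all 6 arrays, that is, below the 40th percentile of probe set means (a log2 intensity of 5.25). Of the 8 other Treg markers, none was dim and 0 passed (Ctla4 0.22, adjusted p = 0.0531, Il2ra 0.20 and Cd3g 0.12 on the log2 scale). Xist read from 12.78 to 12.93 and Eif2s3y from 2.62 to 2.73, so all 6 arrays had high Xist with the Y-linked Eif2s3y, Uty and Kdm5d dim. Of 16 cell cycle genes 6 rose (Birc5 0.79, Top2a 0.71, Mki67 0.68, Ccnb2 0.63, Rrm2 0.56 and the dim Aurkb 0.52 on the log2 scale). With each array left out in turn Top2a passed in 6 of 6 fits, and the other 5 in 1 to 4; without the intensity trend in the variance those 5 did not pass. Top2a did not pass with probe sets of the _s_at, _x_at and _a_at kinds, which can read several transcripts or near-identical copies, left out (0.21, adjusted p = 0.504). In that setting Rrm2 did not pass either (adjusted p = 0.107), Birc5 and Aurkb had no value, and Mki67 and Ccnb2 passed. With every probe set of a gene averaged, Rrm2 (adjusted p = 0.094) and Aurkb (0.0725) did not pass. The mean log2 level of the 16 genes was 7.31 to 7.57 in the sufficient and 7.76 to 7.85 in the deficient arrays. All 10 myeloid markers were measured, 9 were positive with a median log2 change of 0.32, and 0 passed. Lyz2 (1.02 ± 0.26, SE, adjusted p = 0.0849), S100a9 (1.10 ± 0.31) and Fcer1g (0.31 ± 0.11) were higher in all deficient arrays with no overlap. For Lyz2 replicate 1 of the deficient arrays read 6.55, barely above the 6.54 of sufficient replicate 1. The mean log2 level of the 10 markers was 5.39 to 5.56 in the sufficient arrays. In deficient replicates 1, 2 and 3 it was 5.56, 5.91 and 6.16. The summed intensity of the 10, most of it from Cst3 (log2 change 0.069), was 1009 to 1084 in the sufficient and 1064 to 1495 in the deficient arrays, with Cd68, Itgam, Cd14 and S100a8 dim. Of the B cell markers 6 of 7 were measured and Cd22 rose (1.15), while Cd79b had 0.23 and Ms4a1 -0.40. The median of the 6 was 0.015, with Cd79a, Pax5 and Blk dim. Their summed intensities were 392 to 408 in the sufficient and 525 to 603 in the deficient arrays, most of the rise being that of Cd22. Of the CD8 T and NK cell markers 5 of 6 were measured and 0 passed. Klrk1 had -0.57 with no overlap, Eomes -0.099, Cd8a 0.085, Cd8b1 0.022 and Ncr1 0.027, with Cd8a and Ncr1 dim. Their sums were 295 to 308 and 249 to 271, most of the fall being that of Klrk1. The gap between the 3′ and 5′ control probe sets of the transferrin receptor, a sign of RNA integrity, was 1.15 to 1.34 in the sufficient and 1.40 to 1.64 in the deficient arrays on the log2 scale. For beta-actin it was 0.75 to 0.89 and 0.86 to 0.91, and for Gapdh 0.38 to 0.55 and 0.48 to 0.52. The part of any of these in the results below was not tested. RNA came from sorted populations, so fewer cells of a type and less RNA per cell cannot be told apart.

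Initiation begins when eIF2, carrying GTP and the initiator tRNA, joins the small ribosomal subunit with eIF1, eIF1A, eIF5 and the large scaffold eIF3. The eIF4 factors bind the capped end of the mRNA and unwind it. The 4E-binding proteins (4E-BPs) keep the cap-binding eIF4E from its partner eIF4G until mTORC1 phosphorylates them. eIF2B reloads eIF2 with GTP, and phosphorylation of eIF2 by stress kinases blocks that step. Synthetases attach each amino acid to its tRNA, with separate enzymes for the cytosol and for most mitochondrial tRNAs. Activated T cells raise much of this machinery as they enter growth, and resting T cells keep translation low.

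None of the 60 genes passed the threshold (limma, adjusted p under 0.05 over all genes), while 2.21% of all genes did. The smallest adjusted p was 0.0755, of Hars. Changes were small, from -0.34 (Sars2) to 0.24 (Iars2) on the log2 scale, and 59 of 60 lay within 0.25 of 0. So did 11414 of all 12394 genes. The 95% confidence interval of the change lay within 0.5 of 0, or 1.41-fold, for 59 of the 60 genes, Sars2 being the exception, and within 0.25, or 1.19-fold, for 47. The interval included 0 for 48 genes and excluded it for the other 12, before adjustment over all genes.

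The small differences were more often positive than negative. Of the 60 genes 44 read higher in the deficient arrays (73.3%, against 53.0% of all genes), with a median log2 change of 0.061 against 0.0078 over all genes. At an unadjusted p under 0.05, 9 genes were higher (15.0%) and 3 lower (5.0%), where 8.63% and 5.8% of all genes were. The 60 genes lie on bright probe sets, whose standard errors are smaller. Among the 3658 genes at or above a mean log2 intensity of 8.14, the lower quartile of the 60, 14.8% were higher and 10.4% lower at that p, 55.4% had a positive change and the median was 0.014. The 2 groups did not overlap, with all deficient arrays higher, for 14 genes (23.3%), against 11.3% of all genes and 18.0% of the genes this bright. They did not overlap in the other direction for 4 (6.67%, against 8.51% and 13.1%). Replicate 2 of the sufficient arrays was the lowest of the 6 arrays for 26 of the 60 genes (43.3%), against 18.5% of all genes. Without it 43 genes were positive, 0 passed, and the median changes of the initiation factors and of the cytosolic synthetases, 0.060 and 0.079 with all arrays, were 0.040 and 0.054. With probe sets of the _s_at, _x_at and _a_at kinds left out, 47 genes kept a value and 26 of these were positive. The median of the initiation factors was then 0.0042. Averaging every probe set of a gene gave 0.030, so the size of this median depended on which probe sets were used.

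**Figure D1:**
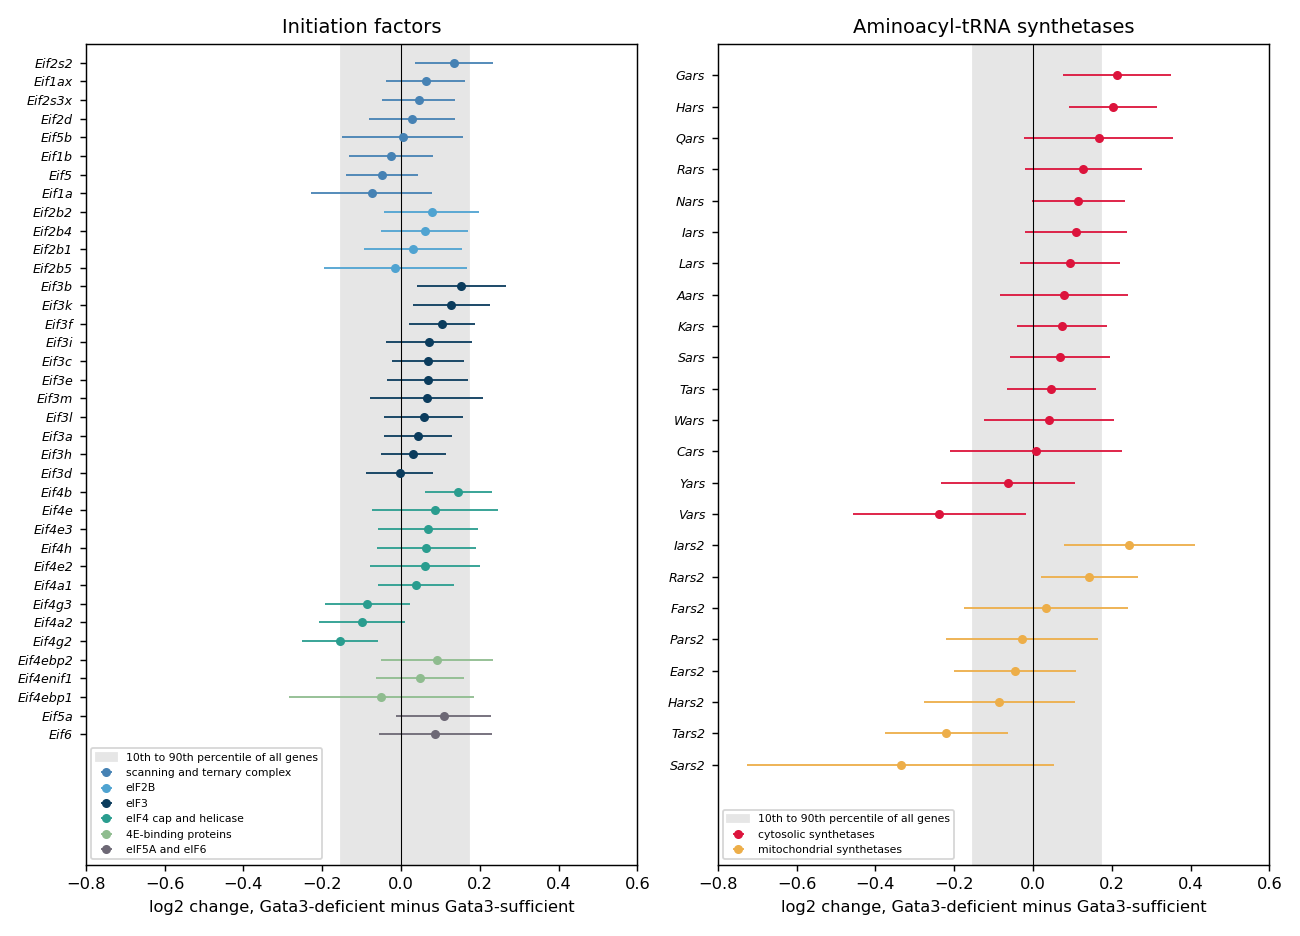
Points give the log2 change of each gene (deficient minus sufficient, 3 arrays each) and bars its 95% confidence interval from limma, coloured by class. The grey band spans the 10th to 90th percentile of all 12394 genes (-0.15 to 0.17), and most genes of both families lie inside it.

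**Figure D2:**
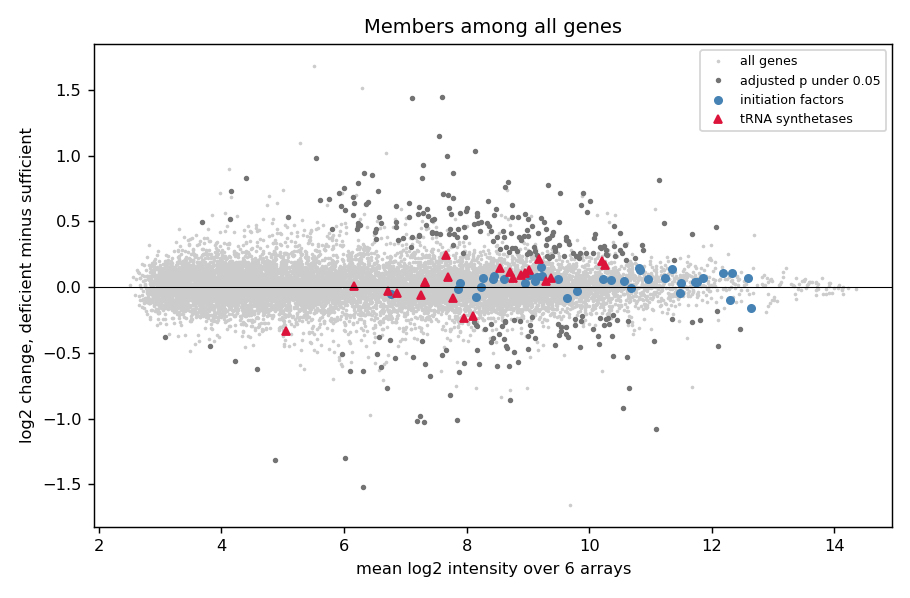
The log2 change of each gene is plotted against its mean log2 intensity over the 6 arrays, with all 12394 genes in light grey and the 274 past the threshold in dark grey. The initiation factors (circles) and synthetases (triangles) lie close to 0, and none is among the genes past the threshold.

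The factors that scan for the start codon and deliver the initiator tRNA differed little between groups. Of 8 measured genes of this class 5 were positive, with a median of 0.016. Eif2s2, the beta subunit of eIF2, read 11.26, 11.23 and 11.37 in the sufficient and 11.43, 11.41 and 11.43 in the deficient arrays. All 3 deficient arrays were higher than every sufficient one, by a log2 change of 0.13 ± 0.04 (SE, adjusted p = 0.174). Its other 5 probe sets had changes from -0.062 to 0.070. Eif2s3x, the X-linked gamma subunit, had a change of 0.044 ± 0.041, and Eif1ax, an X-linked gene of eIF1A, 0.063 ± 0.044, with no overlap between groups. Eif1a, its autosomal relative, had -0.075 on the brighter and 0.17 on the other of its 2 probe sets, which are of the _a_at and _s_at kinds.

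Eif5 encodes the factor that triggers GTP hydrolysis by eIF2, and its probe sets were not alike. The brightest one, which stands for the gene, had a change of -0.048 ± 0.041 (SE, adjusted p = 0.678). The other 3 had -0.093, -0.14 and -0.32. The last read 9.74, 9.89 and 9.86 in the sufficient and 9.56, 9.46 and 9.52 in the deficient arrays, with no overlap. It was the only one of the 133 probe sets of the 60 genes to pass when all 20393 probe sets were tested, of which 1.69% passed (log2 change -0.32 ± 0.06, adjusted p = 0.0252), where 0.677% of all probe sets were lower past the threshold. The call was lost without limma's intensity trend (adjusted p = 0.127), and without sufficient replicate 2 (0.138) or 3 (0.0828) or deficient replicate 2 (0.124) or 3 (0.0712), while the change stayed between -0.36 and -0.28. This probe set was singled out after its value was seen. Where each probe set lies in the transcript was not analysed here. Eif5b, the GTPase of subunit joining, had a change of 0.0042 ± 0.0683, with an interval from -0.15 to 0.16.

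The eIF2B class had 4 measured subunits, 3 of them positive with a median of 0.045. The changes ran from -0.014 (Eif2b5, the catalytic epsilon subunit) to 0.077 (Eif2b2, of the regulatory core), with Eif2b4 at 0.060 ± 0.050 and Eif2b1 at 0.030 ± 0.056 (SE). No adjusted p was below 0.587.

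The subunits of the eIF3 scaffold leaned one way. Of 11 measured subunits 10 were positive, with a median of 0.068, and the mean log2 level of the 11 was 11.09, 11.10 and 11.12 in the sufficient and 11.17, 11.19 and 11.17 in the deficient arrays. Each of the 3 deficient arrays thus stood above the sufficient ones, by 0.071 on average. Eif3b, a core subunit of the scaffold, read 9.20, 9.10 and 9.10 in the sufficient and 9.33, 9.29 and 9.24 in the deficient arrays (log2 change 0.15 ± 0.05, SE, adjusted p = 0.174). Eif3k read 10.74, 10.73 and 10.83 against 10.94, 10.86 and 10.88 (0.13 ± 0.04, adjusted p = 0.194). Eif3f read 12.25, 12.24 and 12.32 against 12.39, 12.36 and 12.37 (0.10 ± 0.04, adjusted p = 0.227). Groups did not overlap for these 3 of 11 genes (27.3%, against 11.3% of all genes and 18.0% of the bright genes above). Eif3c had 0.068 ± 0.041 and Eif3e, the brightest of the class, 0.068 ± 0.046, both with overlap. Eif3d, the subunit that can itself bind the cap, had the only negative change, -0.0029 ± 0.0379. A second probe set of Eif3i had a larger change than the one used, 0.21 ± 0.05 against 0.070 ± 0.049, and did not pass over all probe sets (adjusted p = 0.0566). With probe sets of the _s_at, _x_at and _a_at kinds left out, it stood for Eif3i and passed narrowly (adjusted p = 0.05 after rounding). In that setting Eif3f and Eif3k, each read by 1 probe set of the _a_at kind, had no value, nor had Eif3m. Eif3c had 0.096 there and Eif3e -0.14, the latter from a dim probe set.

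Promoters of Eif3f and Eif3k, 2 of the 3 subunits with no overlap, held CACGTG, the E-box that Myc binds. They are printed 5′ to 3′ in the direction of transcription, from 250 bases before to 30 bases after the first listed start site (RefSeq, GRCm38.p6), with the E-box in capitals. It begins 68 bases before the start in Eif3f and 44 before it in Eif3k.
Eif3f, chr7:108934165-108934444, plus strand: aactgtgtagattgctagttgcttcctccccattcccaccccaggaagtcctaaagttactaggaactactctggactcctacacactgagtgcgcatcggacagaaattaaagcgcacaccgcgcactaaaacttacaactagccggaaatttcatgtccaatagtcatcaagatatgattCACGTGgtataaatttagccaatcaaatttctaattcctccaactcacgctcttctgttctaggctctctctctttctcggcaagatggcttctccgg
Eif3k, chr7:28981859-28982138, minus strand: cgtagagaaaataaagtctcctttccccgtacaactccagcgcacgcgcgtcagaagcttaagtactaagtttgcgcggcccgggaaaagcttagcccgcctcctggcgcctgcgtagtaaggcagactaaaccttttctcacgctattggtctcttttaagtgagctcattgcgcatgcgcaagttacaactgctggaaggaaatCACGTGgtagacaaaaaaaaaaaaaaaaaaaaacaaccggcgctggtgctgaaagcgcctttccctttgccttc
Of the 60 genes 43 had a promoter in the table, and 10 of these held CACGTG within 250 bases before to 50 after the start, among them also Eif3a, Eif1b, Eif4a1 and Eif4h of the initiation factors. Eif3a had a change of 0.043 ± 0.039 (SE) with overlap, while Eif3b, the third subunit with no overlap, did not hold CACGTG. Of all 27025 promoters of that length 7.24% held it. This share was not matched on base composition, and a match is a description of the letters only.

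The eIF4 class was divided. Of 9 measured genes 6 were positive, with a median of 0.062. Eif4b, which stimulates the helicase eIF4A, read 10.77, 10.72 and 10.74 in the sufficient and 10.91, 10.89 and 10.87 in the deficient arrays. The deficient arrays were all higher, with little spread (log2 change 0.14 ± 0.04, SE, adjusted p = 0.0918), and the change passed only with array quality weights (adjusted p = 0.0436). Its 2 other probe sets had 0.067 and -0.092. Eif4g2, which encodes DAP5, a relative of eIF4G that does not bind the cap protein, read 12.67, 12.79 and 12.68 in the sufficient and 12.55, 12.59 and 12.54 in the deficient arrays. The deficient arrays were all lower (-0.16 ± 0.04, adjusted p = 0.113), and here too the change passed only with array quality weights (adjusted p = 0.0475). The other Eif4g2 probe sets that were not dim had -0.056 and 0.023.

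The other cap-binding and helicase genes did not pass. Eif4a1 and Eif4a2, the 2 main eIF4A helicases, had changes of 0.038 ± 0.044 and -0.10 ± 0.05 (SE, adjusted p = 0.771 and 0.396). Eif4a1 had 0.16 and -0.016 on its other probe sets. Eif4e, the cap-binding protein, read 9.14, 9.22 and 9.21 against 9.44, 9.15 and 9.24, so that replicate 2 of the deficient arrays lay within the sufficient range (0.087 ± 0.071, adjusted p = 0.659). Eif4g3 had -0.085 ± 0.048 with no overlap (adjusted p = 0.478), and Eif4e3 0.068 ± 0.057. Eif4e2 had 0.062 ± 0.062, with 0.024 and -0.021 on its other probe sets that were not dim.

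None of Eif4ebp1, Eif4ebp2 and Eif4enif1 passed, and groups overlapped for each. Eif4ebp1, the best known target of mTORC1 among them, read 6.79, 6.76 and 6.81 in the sufficient and 6.49, 6.81 and 6.91 in the deficient arrays. The deficient arrays lay on both sides of the sufficient ones (log2 change -0.050 ± 0.105, SE, adjusted p = 0.885). Eif4ebp2 had 0.091 ± 0.063 and Eif4enif1, a shuttling protein that carries eIF4E to the nucleus, 0.048 ± 0.050. Eif5a, whose protein carries the amino acid hypusine and relieves stalled ribosomes, had 0.11 ± 0.05 (adjusted p = 0.405). Dohh and Dhps, the enzymes that make hypusine, had 0.078 ± 0.080 and 0.050 ± 0.065. Eif6, which keeps free large subunits from joining, had 0.087 ± 0.064 (adjusted p = 0.607).

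Among the cytosolic synthetases 13 of 15 were positive, with a median of 0.079, and 0 passed. The mean log2 level of the 15 was 8.58, 8.52 and 8.60 in the sufficient and 8.63, 8.66 and 8.61 in the deficient arrays. Hars, the histidine enzyme, read 10.07, 10.06 and 10.18 in the sufficient and 10.24, 10.35 and 10.32 in the deficient arrays. All deficient arrays were higher, 1.15-fold on average (log2 change 0.20 ± 0.05, SE, adjusted p = 0.0755). With 1 array left out at a time its adjusted p was 0.0632 to 0.282, and with array quality weights it passed (0.0161). The other Hars probe set, which alone is not of the _a_at kind, had a change of 0.050 ± 0.055. Gars, the glycine enzyme that serves cytosol and mitochondria, read 9.12, 8.97 and 9.16 against 9.36, 9.25 and 9.27, also with no overlap (0.21 ± 0.06, 1.16-fold, adjusted p = 0.118).

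Most of the other cytosolic enzymes had small positive changes. Nars, Iars and Lars (for asparagine, isoleucine and leucine) had 0.11 ± 0.05, 0.11 ± 0.06 and 0.094 ± 0.056 with no overlap (SE, adjusted p from 0.364 to 0.51). The second Nars probe set, nearly as bright, had 0.0083 and the second Iars probe set -0.056, both with overlap. Qars, the glutamine enzyme, had 0.17 ± 0.08, with replicate 1 of the deficient arrays at 10.54 and the other 2 at 10.27 and 10.23, within the sufficient range of 10.09 to 10.31. Wars, the tryptophan enzyme that interferon gamma induces in many cells, had 0.041 ± 0.073, and its 4 probe sets had 0.022 to 0.068. Of 11 other interferon gamma-induced genes Cxcl10 rose (1.03) and the other 10 did not pass, among them Gbp3 (0.16) and the dim Cxcl9 (0.19).

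Vars and Yars were the 2 negative cytosolic enzymes. Vars, the valine enzyme, read 8.09, 8.06 and 8.08 in the sufficient and 7.59, 7.89 and 8.03 in the deficient arrays. The deficient arrays were all lower but far apart, and the change of -0.24 ± 0.10 (SE, adjusted p = 0.298) was -0.12 without replicate 1 of the deficient arrays. Yars, the tyrosine enzyme, had -0.063 ± 0.076 (adjusted p = 0.784). Cars, the cysteine enzyme and dimmest of the class, had 0.0077 ± 0.097.

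Promoters of synthetases were read for TGATGCAA, the composite C/EBP and ATF element through which ATF4 acts in the integrated stress response. Among 8 cytosolic synthetases with a promoter listed by RefSeq, 4 held it on either strand (Aars, Iars, Tars and Yars), as did 0 of 6 mitochondrial synthetases, 0 of 29 initiation factors and 0.929% of all 27025 promoters. Of 20 integrated stress response targets with a promoter 4 held it (Atf3, Chac1, Nupr1 and Slc7a11). Phgdh and Mthfd2, the targets past the threshold that are described below, did not. The element is in capitals, as TGATGCAA or its reverse complement TTGCATCA, and it begins 112 bases before the start in Aars, 15 before it in Tars, and 7 and 3 bases past it in Iars and Yars.
Aars, chr8:111033592-111033871, plus strand: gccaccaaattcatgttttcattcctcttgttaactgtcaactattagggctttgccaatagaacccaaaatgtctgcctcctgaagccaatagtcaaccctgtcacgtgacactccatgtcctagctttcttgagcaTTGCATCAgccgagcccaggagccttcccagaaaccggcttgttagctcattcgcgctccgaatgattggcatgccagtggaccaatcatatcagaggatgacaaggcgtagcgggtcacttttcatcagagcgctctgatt
Iars, chr13:49681880-49682159, plus strand: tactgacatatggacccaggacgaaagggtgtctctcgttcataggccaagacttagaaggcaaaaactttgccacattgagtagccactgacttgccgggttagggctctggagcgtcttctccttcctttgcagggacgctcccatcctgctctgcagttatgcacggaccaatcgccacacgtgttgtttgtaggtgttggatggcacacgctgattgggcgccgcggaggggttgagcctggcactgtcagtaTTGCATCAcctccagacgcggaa
Tars, chr15:11399629-11399908, minus strand: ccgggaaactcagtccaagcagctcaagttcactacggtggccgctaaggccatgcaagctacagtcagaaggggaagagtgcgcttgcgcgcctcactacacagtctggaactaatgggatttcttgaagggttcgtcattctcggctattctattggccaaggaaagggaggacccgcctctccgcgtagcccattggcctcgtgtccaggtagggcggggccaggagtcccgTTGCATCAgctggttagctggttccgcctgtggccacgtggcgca
Yars, chr4:129189653-129189932, plus strand: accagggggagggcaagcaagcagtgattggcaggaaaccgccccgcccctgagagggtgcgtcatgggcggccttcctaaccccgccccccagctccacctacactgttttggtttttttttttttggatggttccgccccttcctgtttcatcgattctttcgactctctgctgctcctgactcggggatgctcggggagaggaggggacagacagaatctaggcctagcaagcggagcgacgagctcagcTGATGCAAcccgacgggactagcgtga
The log2 changes of these 4 genes were 0.079 ± 0.073 (Aars), 0.11 ± 0.06 (Iars), 0.046 ± 0.050 (Tars) and -0.063 ± 0.076 (Yars), in SE, none past the threshold. With 1 free base (TGATGNAA) Gars and Eif2s3x also matched, among 4.06% of all promoters. ATTGCATCA, which overlaps TGATGCAA, was in Aars and Iars and in 0.207% of all. The other motifs searched on both strands gave 15 of 43 genes with CCGGAAG (9.12% of all promoters), 22 with TTCCGG, which overlaps it (15.2%), 32 with GGGCGG (35.9%) and 19 with CCAAT (37.9%). TGACGTCA was in 0 of 43 (1.88% of all), TGACGTNA in 2 (3.08%), the ZBTB33 palindrome in 0 (0.496%), the NRF1 palindrome in 1 (0.977%) and the GATA-type AGATAA in 2 (11.4%).

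The mitochondrial synthetases went both ways. Of 8 measured genes 3 were positive and 5 negative, with a median of -0.037. Iars2, for isoleucine, read 7.52, 7.48 and 7.63 in the sufficient and 7.85, 7.85 and 7.66 in the deficient arrays, all of which were higher (log2 change 0.24 ± 0.07, SE, 1.18-fold, adjusted p = 0.143). Rars2, for arginine, read 8.54, 8.48 and 8.40 against 8.59, 8.63 and 8.63, also without overlap (0.14 ± 0.06, adjusted p = 0.26). Tars2, for threonine, went the other way, from 8.13 to 8.31 in the sufficient against 7.90 to 8.09 in the deficient arrays, with every deficient array lower (-0.22 ± 0.07, adjusted p = 0.162). The other Tars2 probe set had -0.12. Sars2, for serine and the only dim gene of the 60, read 5.20, 5.58 and 4.87 against 4.66, 5.03 and 4.96, which overlap (-0.34 ± 0.17, adjusted p = 0.429). Hars2 had -0.085 ± 0.086 and, on its second probe set, -0.25. Fars2, for phenylalanine, had 0.034 ± 0.093 and -0.26 ± 0.21 on its second probe set. There deficient replicate 1 read 4.96 and the other deficient arrays 5.85 and 5.83, within the sufficient range of 5.70 to 5.90. The direction of this class thus differed gene by gene, and without replicate 1 of the deficient arrays its median was 0.023. Averaging every probe set of a gene gave -0.12.

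**Figure D3:**
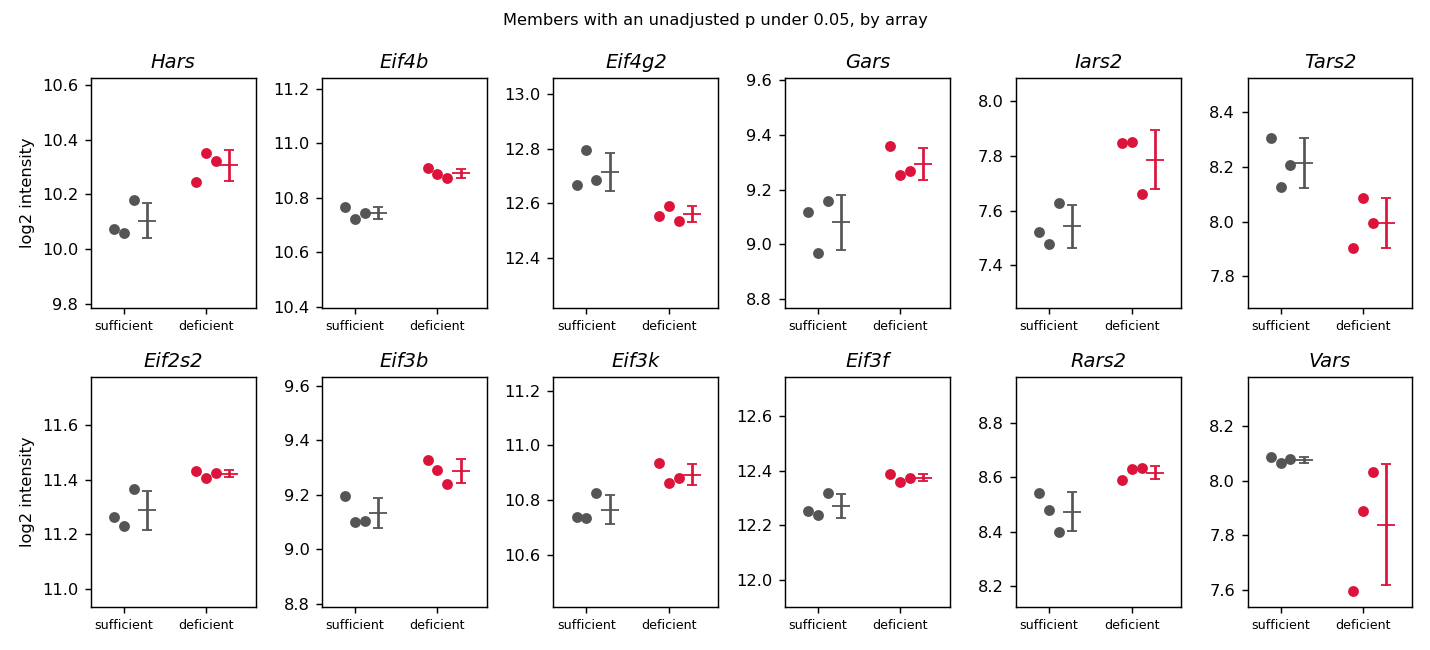
Each panel gives the log2 intensities of 1 gene in the 3 sufficient (grey) and 3 deficient (red) arrays, in replicate order from left to right, with the mean and SD beside them, on axes of equal span. The 12 genes are those with an unadjusted p under 0.05. Groups do not overlap in any of them, which selection by p on these same values favours. Vars has by far the widest spread, in the deficient arrays.

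Probe sets of a gene did not always give the same sign. Of the 60 genes 33 had a further probe set that was not dim, 58 such probe sets in all. Of these 42 had the sign of the one used, and 18 of the 33 genes had a single sign throughout. Eif5, Hars, Tars2 and Hars2 had a single sign, and Eif4b, Eif4g2, Eif2s2 and Qars did not. Both signs were also seen for Eif1ax (0.063 and -0.011), Eif2b2 (0.077, 0.021 and -0.028) and Eif2s3x (0.044, 0.033 and -0.032). The same held for Eif4e (0.087, 0.085 and -0.24), Eif4ebp2 (0.091, -0.086 and 0.15) and Eif4h (0.064, 0.049 and -0.022).

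**Figure D4:**
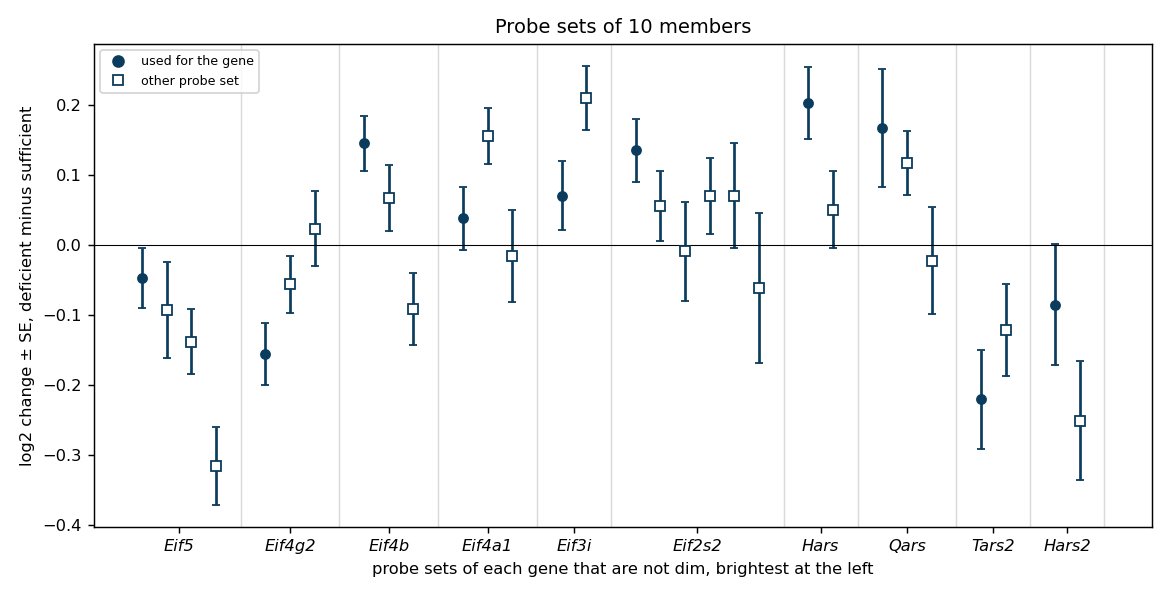
Log2 changes with SE are shown for the probe sets that are not dim of 10 genes, the brightest of each gene at the left and filled. The fourth probe set of Eif5, at -0.32, lies farthest from 0, while Eif4b, Eif4g2, Eif4a1, Eif2s2 and Qars have probe sets on both sides of 0.

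Neighbouring genes of protein synthesis were read from fixed lists. Of 6 measured synthetase subunits and scaffolds that the symbol rule leaves out (Eprs, Farsa, Farsb, Aimp1, Aimp2 and Eef1e1) 0 passed. Aimp1, a scaffold of the multisynthetase complex, had 0.15 ± 0.05 (SE, adjusted p = 0.183), Aimp2, another scaffold of it, -0.064 ± 0.061 and Farsb, a phenylalanine enzyme subunit, 0.029 ± 0.055. Of 13 elongation, release and recycling factors 0 passed, with a median of 0.019. Etf1, the release factor that reads stop codons, had 0.15 ± 0.04 (adjusted p = 0.113) and Mtif2, the mitochondrial initiation factor, 0.14 ± 0.05 (adjusted p = 0.198), both with no overlap. Tufm, the mitochondrial elongation factor, had 0.11 ± 0.06.

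Regulators of initiation also stayed below the threshold. Of 6 eIF2 kinases and phosphatase subunits 0 passed, with a median of 0.015, and Eif2ak1, the heme-regulated kinase, had 0.095 ± 0.077, with no overlap. Eif2ak3, the kinase PERK of the endoplasmic reticulum, had -0.089 ± 0.073, and Eif2ak4, the kinase GCN2 that senses uncharged tRNA, 0.023 ± 0.074. Of 14 genes of mTORC1 and cap regulation 0 passed, 7 were positive and the median was -0.028. Larp1, which binds the mRNAs of ribosomal proteins and translation factors, had 0.16 ± 0.05 (SE, adjusted p = 0.144), Dap 0.16 ± 0.06 and Tsc1, an inhibitor of mTORC1, -0.13 ± 0.05. Of 24 genes of Myc and ribosome biogenesis 0 passed and 21 were positive, with a median of 0.080. Ncl, the gene of nucleolin, had 0.16 ± 0.04 (adjusted p = 0.118), Rrs1 0.20 ± 0.06 and Myc itself 0.29 ± 0.10 (adjusted p = 0.184), with groups that overlap.

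Integrated stress response targets held the only neighbouring genes of amino acid supply past the threshold. Of 22 genes 2 rose and 0 fell, where 1.44% and 0.766% of all genes did, and 17 were positive with a median of 0.10. Phgdh, the first enzyme of serine synthesis, read 9.68, 9.67 and 9.79 in the sufficient and 10.03, 9.94 and 9.94 in the deficient arrays (log2 change 0.26 ± 0.05, SE, adjusted p = 0.0347). Mthfd2, a mitochondrial enzyme of one-carbon metabolism, read 8.60, 8.56 and 8.83 against 9.08, 9.08 and 8.97 (0.38 ± 0.07, adjusted p = 0.0371). Both calls were lost when any array other than sufficient replicate 3 was left out (adjusted p from 0.0610 to 0.168) and without limma's intensity trend (0.152 for Phgdh and 0.135 for Mthfd2). The Phgdh call was also lost with averaged probe sets (0.067). With probe sets of the _s_at, _x_at and _a_at kinds left out Phgdh had no value, and Mthfd2 passed (adjusted p = 0.0373). Psat1, also of serine synthesis, had 0.22 ± 0.07 and did not pass (adjusted p = 0.129). Psph, a further enzyme of serine synthesis, had -0.050 ± 0.061 (adjusted p = 0.787). It was 1 of 5 negative genes of the 22. Ddit3, another of these, had -0.12 ± 0.05 with every deficient array lower (adjusted p = 0.368). Atf4, the transcription factor of this response, had 0.043 ± 0.078; it was named for its role.

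**Figure D5:**
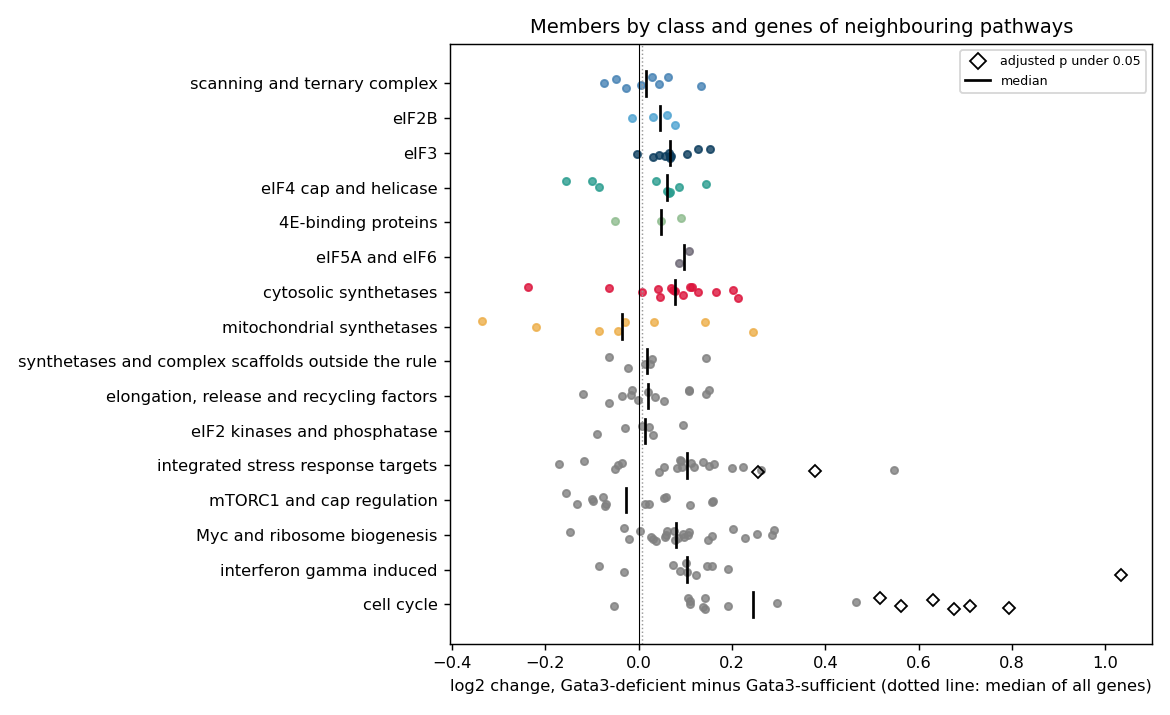
Points give the log2 change of each gene by class for the 60 genes (colours) and for neighbouring lists (grey), with black bars at the medians and open diamonds at genes past the threshold. No diamond falls in the 8 classes of initiation factors and synthetases, while the cell cycle list has 6.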

How the data were processed

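Gene expression was read on 6 Affymetrix arrays, 1 for each sample of sorted mouse Treg cells. Per the labels' protocols, 6 ug of Trizol-extracted RNA was used for biotin-labelled cRNA. The deposited values are log2 intensities that the authors made with RMA, per the submitters' processing notes. RMA subtracts background, gives all arrays 1 distribution by quantile normalization and combines probes into probe sets. Its version, the scanner files and any batch are not given in the sources used here. The log2 scale was read from the range of the values.

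Probe sets were named through the platform annotation, and those with several genes or no gene were left out (20393 of 22690 had 1 gene). The brightest of several probe sets stood for a gene, which gave 12394 genes. No dim probe set was removed. All genes were fitted in R 4.3.3 with limma 3.58.1 (lmFit, eBayes with an intensity trend) as deficient minus sufficient by the labels, two-sided, with Benjamini-Hochberg adjustment over all genes and a threshold of 0.05. The same fit over all 20393 probe sets served for comparisons within a gene. The fit was tested on simulated data. The number of arrays limits the precision. Replicate numbers were not used to pair the arrays, since no source used here says that they do. Correlations of deviations were 0.04, -0.02 and 0.07 for replicates 1, 2 and 3, which cannot exclude a pairing. The alternatives were a replicate block, other variance models, a filter on dim probe sets, other scalings, array weights, other probe set choices, other thresholds and each array left out. Genes were named by a rule: every member past the threshold and, in each class, the 5 with the smallest p. In classes of at least 4 the brightest and dimmest were added. The rule also took all 4E-binding proteins, the extremes by log2 change, and members whose probe sets that were not dim differed in sign or call. Gata3, Foxp3, Eif2s3y and Xist served as checks. In neighbouring lists it took genes past the threshold and the 3 with the smallest p. Any other gene was picked with its values in view. The members, gene lists and promoter motifs were chosen with earlier results of these data known. Promoter sequences are those of RefSeq (GRCm38.p6), matched by symbol.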

Additional observations from a re-analysis of the deposited data

How the results depend on the processing

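At an adjusted p under 0.05, 0 of the 60 genes passed except with array quality weights, where 3 did (Hars at 0.23, Eif4b at 0.14 and Eif4g2 at -0.17 on the log2 scale), and with probe sets of the _s_at, _x_at and _a_at kinds left out, where 1 did (Eif3i at 0.21) and 13 genes had no value. At an adjusted p under 0.1 there were 2, at an unadjusted p under 0.05 12, and with each array left out 0 to 0. Over all 12394 genes, 274 passed as reported and 54 without limma's trend. With array quality weights 585 of 12394 passed, beside the 3 of 60. With the 3 kinds left out 195 passed, of fewer genes with a value. There were 525 at an adjusted p under 0.1, 1789 at an unadjusted p under 0.05 and 62 to 270 with each array left out. With the replicate number as a block 368 genes and 0 of the 60 passed. No source used here says that the numbers pair the arrays. The median change of the initiation factors was 0.030 from averaged probe sets, 0.0042 with the 3 kinds left out and 0.040 to 0.070 with each array left out. That of the cytosolic synthetases was 0.054 to 0.10 with each array left out. That of the mitochondrial synthetases was -0.12 from averaged probe sets and -0.064 to 0.023 with each array left out.

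Signs turned for these genes. With array quality weights they were Cars (-0.0091), Eif2b5 (0.042), Eif3d (0.0036), Eif4ebp1 (0.029) and Pars2 (0.0034). From averaged probe sets they were Eif1a (0.049), Eif2d (-0.023), Eif3h (-0.0077), Eif4e (-0.021) and Fars2 (-0.11). With the 3 kinds left out they were Eif1ax (-0.011), Eif2d (-0.19, dim), Eif2s3x (-0.032), Eif3e (-0.14, dim), Eif4e2 (-0.021), Iars (-0.056) and Qars (-0.20, dim). With each array left out the ranges that crossed 0 were -0.044 to 0.096 (Cars), -0.057 to 0.0022 (Eif1b), -0.070 to 0.075 (Eif2b5), -0.015 to 0.0057 (Eif3d), -0.13 to 0.072 (Eif4ebp1), -0.056 to 0.063 (Eif5b), -0.053 to 0.12 (Fars2), -0.16 to 0.0067 (Hars2), -0.098 to 0.040 (Pars2) and -0.0036 to 0.10 (Wars). The cause was not tested in any of these. The intervals show what 3 arrays a group can resolve, and the widest was that of Sars2, the 1 dim gene.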
